A study of Mus musculus with 91 samples.

Results

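The genes described here encode the translation factors, the proteins that start, elongate and end protein synthesis on the ribosome. They were taken by name from the expression table, as every row whose symbol begins with Eif or Eef together with Bzw1, Bzw2, Pabpc1, Etf1 and Gspt1. The rule found 69 genes of 23956. The table holds 91 single bone marrow cells of C57BL/6 mice with the genotype Gfi1-R412X/- Irf8+/-, that is with an R412X and a minus allele of Gfi1 and 1 of 2 copies of Irf8. Cells were sorted as Lin- CD117+ Sca-1- CD34+ CD16/32high and captured on a Fluidigm C1 chip. The labels place 46 cells in the GMP population (granulocyte-monocyte progenitors) and 45 in the CD11b+ GMP-P population. All cells carry the same alleles and no cells of another genotype were analysed here, so nothing below measures an effect of the mutation. The labels name no animal, age or sex, and the cell names carry a different unexplained number in each population, so whatever that number marks and the population cannot be told apart. Each population therefore counts as 1 sample, cells are not replicates, and no test between the populations was made.

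Initiation begins when eIF2 brings the initiator tRNA to the small ribosomal subunit, which also carries eIF1, eIF1A, eIF5 and the large scaffold eIF3. The eIF4F complex binds the mRNA cap and unwinds the leader, and the loaded subunit scans to the start codon. After subunit joining by eIF5B, eEF1 delivers aminoacyl-tRNAs, eEF2 moves the ribosome along, eIF5A helps it past difficult peptide bonds, and Etf1 with Gspt1 releases the finished chain. Maturing granulocytes are known to shrink their protein synthesis machinery as they leave the proliferating progenitor stages.

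Levels are given as log2(TPM + 1), where TPM (transcripts scaled to a fixed total) corrects for transcript length and keeps no record of depth, so sequencing depth is unknown. Differences are CD11b+ GMP-P means less GMP means on that scale, ± marks the SD over cells, and a gene is called lower or higher from a difference of 1. Genes detected (above 0) in 10% or more of either population's cells count as measured. For genes with many zeros, this scale can give smaller or larger differences than the log2 ratio of mean TPM. Eef2k had -1.38 on this scale and -4.71 by mean TPM, and Eef1e1 had -3.26 and -1.10. Over the measured factors the medians were -1.79 and -0.92.

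Several features of the cells move with the population. GMP cells had 5294 ± 801 genes above 0 and CD11b+ GMP-P cells 4112 ± 953, and the 50 highest genes of a cell held 27.3% ± 1.96 and 48.9% ± 16.1 of its TPM. Elane, the neutrophil elastase gene, split the CD11b+ GMP-P cells. It was at least 9 in 31 of them and under 9 in 14, and only 3 of the 45 lay within 1 of that value. The 14 cells had 3096 ± 510 genes above 0, gave 67.1% ± 5.84 of their TPM to their 50 highest genes, and held Camp, a late granule gene, at 15.65 ± 0.38. In GMP, 3 of 46 cells had Elane under 9. Counts of the gene groups are therefore given with and without the 14 cells, beside the shares over all genes given with the count of all factors. Of the markers of the sorting gate, Itgam, which encodes CD11b, had means of 0.54 (GMP) and 3.68 (CD11b+ GMP-P), and Cd34 of 7.22 and 2.55. Kit, which encodes CD117, was above 0 in 37 of 46 GMP cells and in 21 of 45 CD11b+ GMP-P cells, with means of 3.65 and 0.90 and only 3 of those 45 at 10 TPM, although both were sorted as CD117+. Ly6a, a gene of the Sca-1 antigen, was above 0 in 43 and 44 cells, with means of 5.51 and 5.74, although both were sorted as Sca-1-. Fcgr3 had means of 9.18 and 6.89 and Fcgr2b of 5.24 and 3.46. Transcripts of Kit and Ly6a thus did not follow the sorted surface markers. All 5 primary granule markers were above 0 in nearly all cells of both populations, but all 5 were lower in CD11b+ GMP-P, with a median of -3.06. In the 14 cells with Elane under 9, Mpo reached 10 TPM in 3 and Ctsg in 1. All 6 late granule markers were higher in CD11b+ GMP-P, with a median of 6.00. Lower there were 4 of 5 monocyte markers and 2 of 3 basophil and mast cell markers. The lymphoid markers Cd3e, Cd79a and Ncr1 were at 0 in every cell, as were 4 of 6 erythroid and megakaryocyte markers. The 5 monocyte markers summed to between 0 and 5848 TPM in GMP cells and between 0 and 1717 in CD11b+ GMP-P cells, and the 3 basophil and mast cell markers to between 0 and 23694 and between 0 and 575. The part of these cells in the results was not tested.

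Most translation factor transcripts were lower in CD11b+ GMP-P, to an extent that varied by group. Of 65 measured genes, 52 were lower and none higher, with 13 within 1 of GMP, against 29.9% of 10030 genes called lower and 2.45% called higher by the same rule. The median difference was -1.79, beside -0.50 for all 10030 genes. With detection in 50% or more of either population's cells required, 50 of 59 factors were lower, against 51.8% of 5133 genes (3.7% were higher), with medians of -1.94 and -1.05. Group medians over measured genes ran from -2.47 (eEF1) to -0.37 (eIF2 kinases). Those of subunit joining (-0.94), selenocysteine delivery (-1.01), eIF4E repressors (-1.05) and termination (-1.13) lay near the -1.05 of the 5133 genes. The 4 genes that were not measured were Eef1a2, Eif4e1b, Eif5a2 and Eif3j1. Without the 14 CD11b+ GMP-P cells with Elane under 9, 32 of 65 factors were lower, against 19.4% of all genes (3% were higher). The median was -0.96, beside -0.32 for all genes. Of the 59 commonly detected factors 30 were lower in that comparison, against 33.3% of 5133 genes, with medians of -1.05 and -0.61. Among the 26 GMP and 21 CD11b+ GMP-P cells with a similar number of genes above 0 (3947 to 5645), 25 of 65 were lower, against 16.7% (5.88% were higher). The median was -0.86, beside -0.20 for all genes, and among commonly detected genes the medians were -0.94 for the factors and -0.44 for all.

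**Figure D1:**
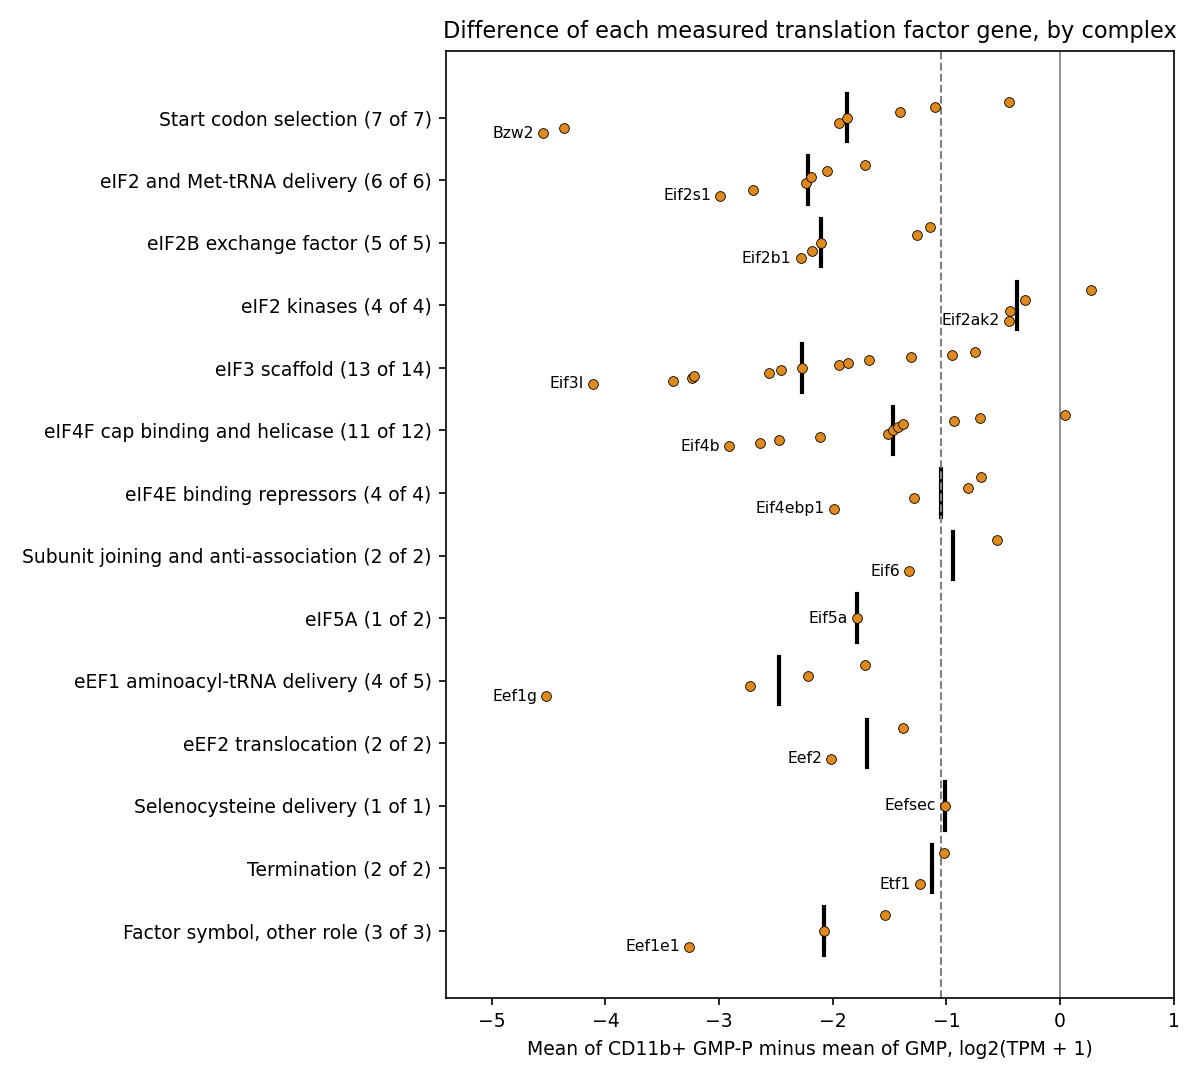
Difference of each measured gene (points) on the x axis (CD11b+ GMP-P less GMP, log2(TPM + 1) scale), by group on the y axis with the number measured of all members. Thick bars are group medians, the dashed line marks the median of -1.05 over the 5133 commonly detected genes, and Bzw2 at -4.55 and Eef1g at -4.52 lie farthest to the left.

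The summed TPM of all 69 genes made up between 1.92% and 3.18% of a GMP cell, with a median of 2.51%. In CD11b+ GMP-P it ran from 0.115% to 2.52%, with a median of 1.19%. GMP cells thus formed a narrow band, and CD11b+ GMP-P cells spread from that band to far below it. The mean level of the 65 measured genes was 5.42 ± 0.76 in GMP cells and 3.58 ± 1.35 in CD11b+ GMP-P cells, and 12 of the 45 CD11b+ GMP-P cells lay below the lowest GMP cell at 2.56. It was 4.29 ± 0.89 in the 31 cells with Elane of at least 9 and 2.0 ± 0.67 in the 14 others. Of the 12 lowest cells, 11 belonged to those 14. A cell held 54.2 ± 6.31 of the 69 genes above 0 in GMP and 43.5 ± 8.99 in CD11b+ GMP-P.

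The level per cell moved closely with the number of genes above 0, with Pearson correlations of 0.82 over 46 GMP cells and 0.93 over 45 CD11b+ GMP-P cells. Against the share of the 50 highest genes the correlations were -0.53 and -0.93. These are descriptions over cells of 1 library set each, and the points share the fixed TPM total, which lowers all other genes when a few take more. Among the 31 CD11b+ GMP-P cells with Elane of at least 9, the rank correlation of the factor level with Camp was -0.68. The 3 GMP cells with Elane under 9 had a low mean level of 3.11 ± 0.59 but a summed TPM of 27050 ± 4381, as high as the 25194 ± 2914 of the other 43, with fewer genes above 0 (3275 ± 610 against 5435 ± 599).

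**Figure D2:**
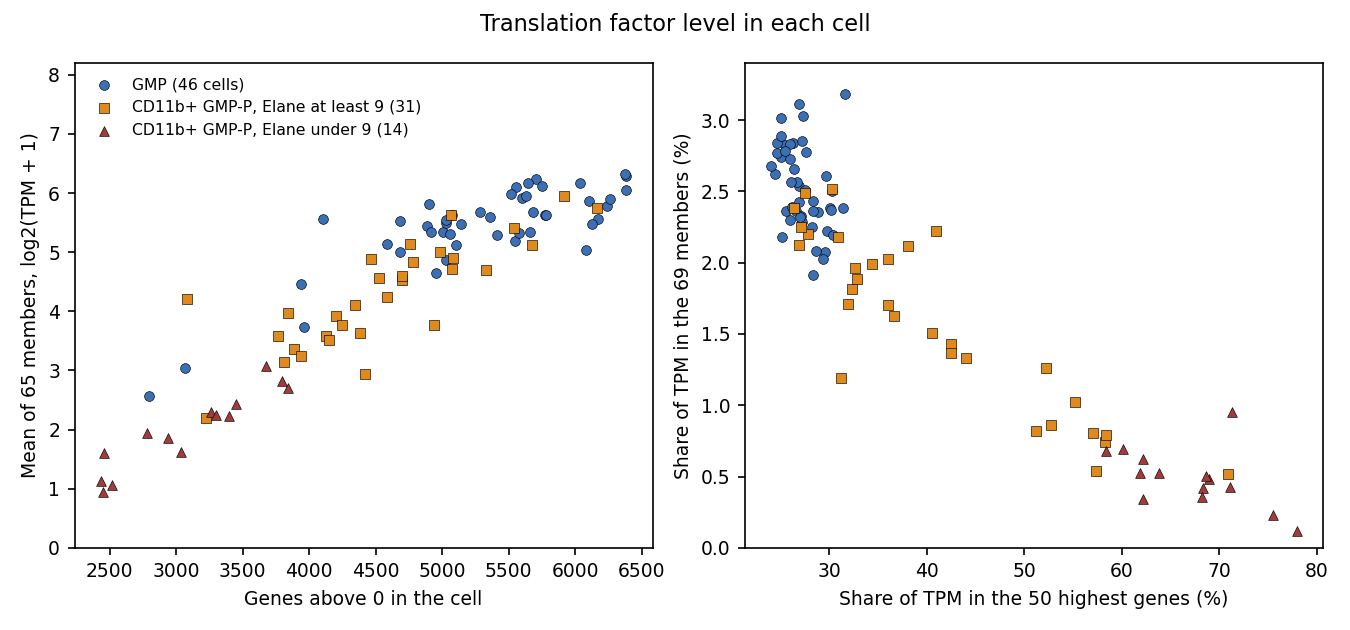
Left, mean of the 65 measured genes in log2(TPM + 1) against the number of genes above 0, and right, share of a cell's TPM in the 69 genes against the share in its 50 highest genes, 1 point per cell. The 14 CD11b+ GMP-P cells with Elane under 9 (triangles) sit at the lower left and lower right, below 3.1 and below 1%.

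The eEF1 genes were the most abundant group. Eef1a1 encodes the GTPase that carries each aminoacyl-tRNA to the ribosome, and it ranked as gene number 3 of the whole table by mean level. In GMP it ran from 12.60 to 14.31 with a median of 13.25, and in CD11b+ GMP-P from 2.30 to 13.43 with a median of 11.69. It was above 0 in all 91 cells, its range in GMP was the narrowest of the 65 measured genes, and the populations overlapped. Its mean was 13.26 ± 0.31 against 11.54 ± 1.89, a difference of -1.72, and its mean TPM was 10041 against 4543. Eef1a1 and Eif5a have many processed pseudogene copies, with which reads may be shared. Eef1a2, the muscle and neuron paralog, was listed at 0 in every cell.

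The eEF1B subunits reload eEF1A with GTP. Eef1g, the gamma subunit that anchors this exchange complex, ran from 0 to 11.78 in GMP (median 10.22) and from 0 to 10.38 in CD11b+ GMP-P (median 7.60), a difference of -4.52. It reached 10 TPM in 45 of 46 cells in GMP and 27 of 45 in CD11b+ GMP-P. In the 14 cells with Elane under 9 it averaged 1.15 ± 2.08, against 7.25 ± 3.13 in the other 31. The difference from GMP was -2.63 with those 31 cells alone. The exchange subunits Eef1d (6.87 ± 2.49 and 4.14 ± 3.51) and Eef1b2 (9.21 ± 1.90 and 6.99 ± 3.35) differed by -2.73 and -2.22. All 4 measured genes of the group were lower, with a median of -2.47 (3 of 4 and -1.23 without the 14 cells, 2 of 4 and -1.08 among cells of similar gene number), and the difference of the gamma subunit exceeded that of the GTPase it serves. As a share of all factor transcripts, which does not depend on the scaling of a cell, Eef1g was 4.79% ± 2.54 in GMP, 2.30% ± 1.77 in the 31 CD11b+ GMP-P cells and 0.349% ± 1.24 in the 14.

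Both genes of translocation were lower, with and without the 14 cells, and 1 was among cells of similar gene number. Eef2, the GTPase that moves the ribosome by a codon, ran from 4.99 to 11.03 in GMP (median 8.73) and from 2.18 to 9.93 in CD11b+ GMP-P (median 6.98), a difference of -2.01. The ranges overlapped broadly. Eef2k, the kinase that switches eEF2 off, was sparse, above 0 in 28 of 46 and 7 of 45 cells, and differed by -1.38. In GMP it averaged 20.8 TPM, of which 1 cell with 521 TPM made up the larger part (9.64 without that cell), against 0.793 in CD11b+ GMP-P. Eif5a, which is modified with hypusine and eases peptide bonds that stall the ribosome, was the second most abundant factor. It ran from 9.68 to 12.26 in GMP and from 0.65 to 11.67 in CD11b+ GMP-P, with medians of 11.36 and 10.16 and a difference of -1.79, which was -0.65 without the 14 cells with Elane under 9. Its paralog Eif5a2 was above 0 in 1 cell of each population. Eefsec, which delivers selenocysteine, was above 0 in 27 and 16 cells and differed by -1.01. Its difference was -0.60 without the 14 cells and +0.32 among cells with a similar number of genes.

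**Figure D3:**
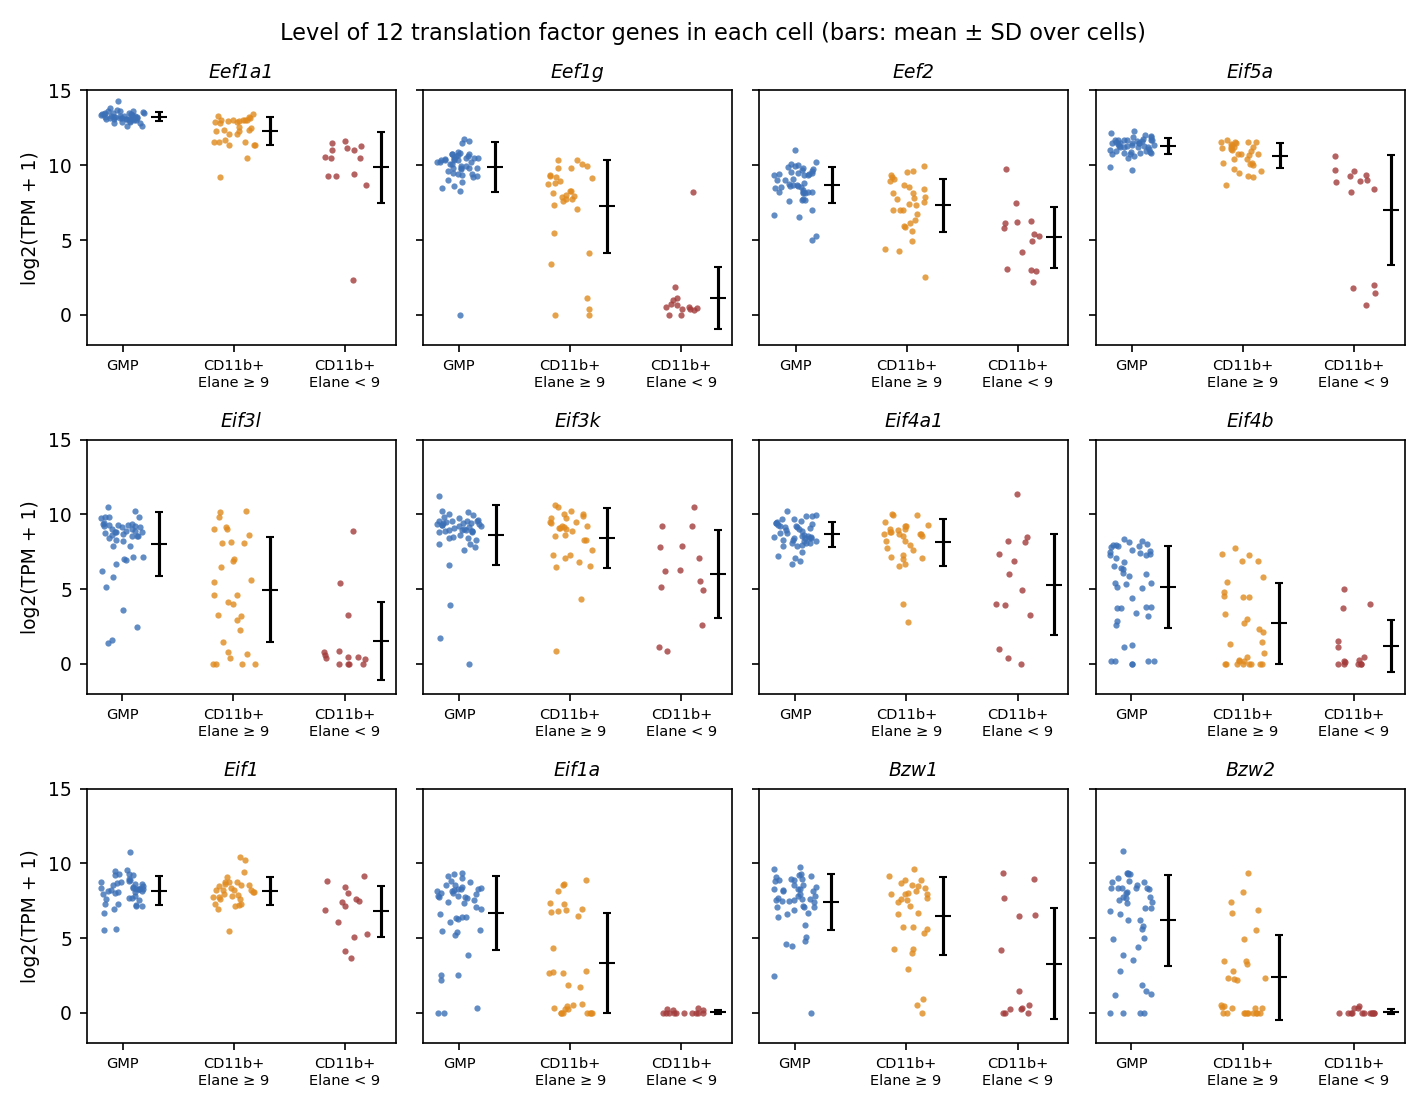
Level of 12 genes in each cell, with log2(TPM + 1) as y axis, for GMP (46 cells), CD11b+ GMP-P with Elane of at least 9 (31) and CD11b+ GMP-P with Elane under 9 (14), where black bars give means ± SD and points are spread sideways for visibility. Eif1 has means of 8.18, 8.15 and 6.79 in these 3 sets, and Bzw2 of 6.20, 2.37 and 0.08.

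The genes of start codon selection had the widest range of differences, from -4.55 to -0.45. Of 7 genes, 6 were lower with all cells and 3 in each case without the 14 cells or among cells of similar gene number. Eif1, whose product keeps the scanning ribosome open until the start codon, differed by -0.45, at 8.18 ± 0.96 in GMP and 7.73 ± 1.38 in CD11b+ GMP-P. The difference was -0.03 without the 14 cells, whose mean was 6.79 ± 1.72, and +0.40 with median-of-ratios scaling, so its direction depends on the setting. It was above 10 TPM in every cell of both populations, from 5.51 to 10.76 in GMP and from 3.65 to 10.44 in CD11b+ GMP-P. Its share of factor transcripts was 1.39% ± 0.92 in GMP, 2.35% ± 1.62 in the 31 cells and 4.48% ± 4.32 in the 14 cells. Eif1b, its paralog, was lower by 1.41 and was above 0 in 38 and 28 cells.

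Eif1a and Eif1ax encode near-identical forms of eIF1A, the partner of eIF1, and reads could have been split between them. Eif1a ran from 0 to 9.34 in GMP (median 7.71) and from 0 to 8.85 in CD11b+ GMP-P (median 0.30), a difference of -4.36. It reached 10 TPM in 40 of 46 and 12 of 45 cells, and in none of the 14 cells with Elane under 9, where its mean was 0.07 ± 0.12. Eif1ax had medians of 7.18 and 6.21 and a difference of -1.87, which was -0.34 without those 14 cells, when that of Eif1a was still -3.34. The 2 copies therefore had similar means in GMP (6.69 and 6.79) and unlike means in CD11b+ GMP-P (2.33 and 4.92). The part of read assignment in this was not tested.

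Bzw1 and Bzw2 encode the eIF5-mimic proteins, which resemble the tail of eIF5 and compete with it for binding partners. Bzw2 ran from 0 to 10.85 in GMP (median 7.41) and from 0 to 9.32 in CD11b+ GMP-P (median 0.32). It reached 10 TPM in 37 of 46 cells in GMP and 8 of 45 in CD11b+ GMP-P, and its mean TPM was 240 and 31.7. Its difference of -4.55 was the largest of all 65 genes, and it was -3.83 without the 14 cells and -3.58 among cells with a similar number of genes. Bzw1 had medians of 7.74 and 6.60 and a difference of -1.95. Within single cells, where scaling cancels, Bzw1 exceeded Bzw2 in 26 of 46 GMP cells (56.5%, exact Clopper-Pearson 95% interval 41.1 to 71.1) and in 38 of the 43 CD11b+ GMP-P cells that held either (88.4%, 74.9 to 96.1). In the 31 cells with Elane of at least 9 it did so in 27. Such intervals, here and below, cover counting error only. Cells are not replicates, so overlap of 2 intervals, or its absence, is no test of a difference between the populations. Eif5 itself, which triggers GTP hydrolysis by eIF2, had medians of 5.43 and 3.93 and a difference of -1.10.

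**Figure D4:**
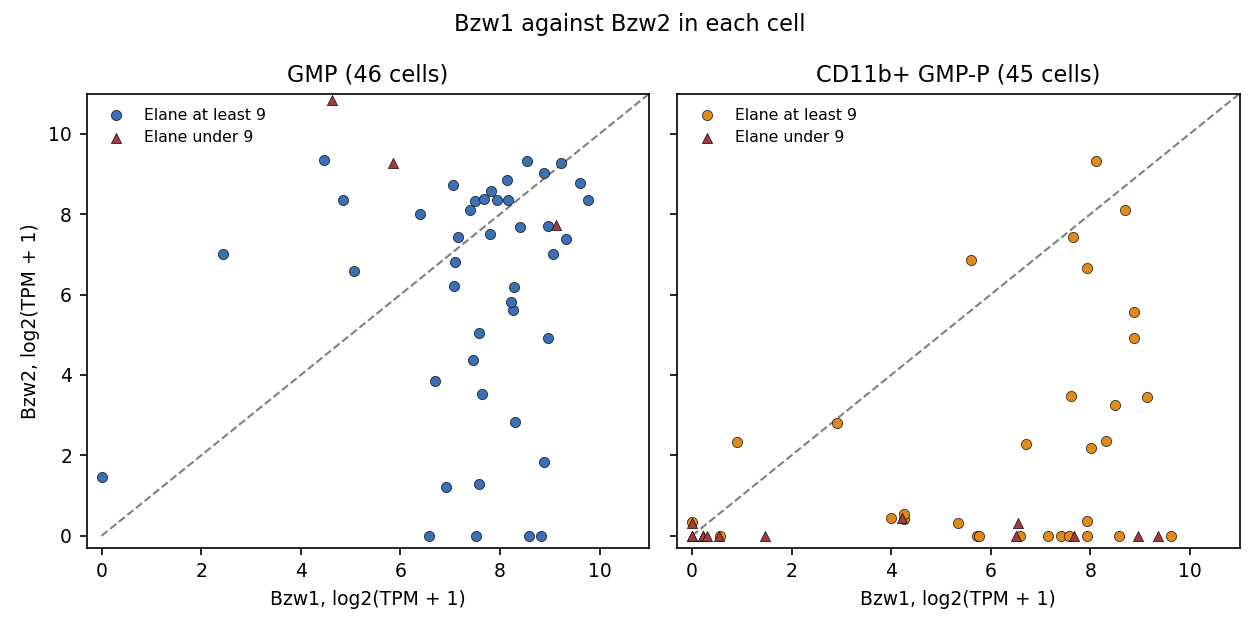
Bzw1 (x axis) against Bzw2 (y axis) cell by cell, on log2(TPM + 1) axes, for 46 GMP cells (left) and 45 CD11b+ GMP-P cells (right), with a dashed line of equal level and triangles for cells with Elane under 9. GMP cells lie on both sides of the line (26 below it), and 38 CD11b+ GMP-P cells lie below it.

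All 6 genes around eIF2 were lower, with differences from -2.99 to -1.72 and a median of -2.21. Without the 14 cells 5 were lower, with a median of -2.04, and among cells of similar gene number 3. Eif2s1, the alpha subunit whose phosphorylation shuts down initiation, had medians of 7.55 and 4.24 and ranges from 0 to 9.5 and from 0 to 8.63. With all cells it had the largest difference of the group, and without the 14 cells it differed by -1.97, less than Eif2s3y (-2.21), Eif2d (-2.12) and Eif2a (-2.11). Eif2s2, the beta subunit, ran from 2.45 to 9.45 in GMP (median 6.83) and from 0 to 8.18 in CD11b+ GMP-P (median 5.61). Eif2a and Eif2d, which bring tRNA to the ribosome without eIF2, differed by -2.70 and -2.24, and their medians in CD11b+ GMP-P were 0.

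The gamma subunit is encoded on both sex chromosomes, by Eif2s3x and Eif2s3y, whose sequences are alike enough for reads to be shared. Eif2s3x was above 0 in 41 of 46 and 32 of 45 cells and Eif2s3y in 32 and 19. The pair averaged 4.36 and 3.72 in GMP and 2.16 and 1.67 in CD11b+ GMP-P. In the 31 CD11b+ GMP-P cells with Elane of at least 9 their means were 2.56 and 1.51. In the 14 others the means were 1.28 and 2.01, in the opposite order. Each copy was above 0 in only 7 of those 14 cells, with medians of 0.19 and 0.18, and reached 10 TPM in 2 and 4. Eif2s3x exceeded Eif2s3y in 27 of 42 GMP cells that held either (64.3%, 48 to 78.4) and in 23 of 39 CD11b+ GMP-P cells (59%, 42.1 to 74.4), and these intervals overlap. Of 4 Y-linked genes (Eif2s3y, Ddx3y, Kdm5d and Uty), at least 1 was above 0 in 44 of 46 GMP and 34 of 45 CD11b+ GMP-P cells, and Xist in 2 and 1, so Y-linked transcripts were present in both populations.

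The exchange factor eIF2B, which recharges eIF2 with GTP, was low and lower still in CD11b+ GMP-P, with all 5 subunits lower (4 without the 14 cells, 3 among cells of similar gene number). Eif2b1 was above 0 in 37 and 22 cells and differed by -2.28. Eif2b4 (37 and 14 cells) and Eif2b3 (31 and 11 cells) differed by -2.10 and -2.18, Eif2b2 by -1.26 and Eif2b5, the catalytic subunit, by -1.14. All 5 had a median of 0 in CD11b+ GMP-P. The 4 kinases that phosphorylate eIF2 under stress had low levels in GMP, with means of 0.26 to 1.40, which left 2 of them no room for a difference of -1 and the other 2 little. None was called in either direction. Eif2ak2, activated by double-stranded RNA, was found in 33 and 24 cells and differed by -0.45, and the heme-regulated Eif2ak1, in 17 and 10 cells, by -0.44. Eif2ak4, which senses uncharged tRNA, differed by -0.31 and Eif2ak3, the kinase of the endoplasmic reticulum, by +0.27, with 6 and 11 cells above 0.

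eIF3 is the scaffold that holds the initiation complex together, and its subunits are thought to act in equal copies. Of 13 measured subunit genes, 11 were lower, with a median of -2.27 and a range from -4.11 to -0.75. Without the 14 cells 7 were lower, with a median of -1.12, and among cells of similar gene number 6, with a median of -0.95. Their mean TPM in GMP ran from 65.4 for Eif3f to 589 for Eif3h, so the transcripts were not at equal levels. Eif3k (medians 9.12 and 8.56), Eif3h (9.02 and 7.35) and Eif3e (8.64 and 6.22) had the highest means over all cells. Eif3l had a median of 8.77 in GMP, with a range from 1.41 to 10.48, and of 3.29 in CD11b+ GMP-P, with a range from 0 to 10.22. Its difference of -4.11 was the largest of the group. Eif3d, a subunit that can bind the mRNA cap, differed by -3.40 (medians 7.74 and 1.55), Eif3i by -3.24 (8.74 and 6.55) and Eif3m by -3.22 (8.69 and 4.90).

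The 2 exceptions were Eif3k and Eif3f. Eif3k was above 0 in 45 cells of each population and averaged 8.62 ± 2.0 and 7.67 ± 2.55, a difference of -0.95. Eif3k and Eif3l encode a pair of neighbouring subunits at the edge of the complex, yet their means were 8.62 and 8.01 in GMP and 7.67 and 3.90 in CD11b+ GMP-P. Without the 14 cells with Elane under 9, Eif3k differed by -0.21 and Eif3l by -3.04. Eif3f differed by -0.75, and by +0.16 without those cells. Eif3a, the largest core subunit (-1.94), Eif3b (-1.86), Eif3c (-1.31), Eif3g (-2.27) and Eif3j2 (-1.68) lay between these extremes. Eif3j1, a near-identical copy of Eif3j2, was above 0 in only 3 GMP cells, so reads of the pair may have been assigned to 1 copy. Taken as mean TPM, the populations differed in Eif3j2 by +0.27 on a log2 scale, against its difference of -1.68, and by -0.47 without the 1 CD11b+ GMP-P cell that held 1660 TPM.

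In the cap-binding group 8 of 11 measured genes were lower, with a median of -1.47. Without the 14 cells 4 were lower, with a median of -0.75, and among cells of similar gene number 5, with a median of -0.42. Over the 5133 commonly detected genes 33.3% were lower without the 14 cells, and the 2 medians were -0.61 and -0.44. In both comparisons the group thus lay near the commonly detected genes. Pabpc1, the poly(A)-binding protein that links the tail of the mRNA to its cap, ran from 5.44 to 10.24 in GMP (median 9.04) and from 0.23 to 10.48 in CD11b+ GMP-P (median 7.90), a difference of -2.11. Eif4a1, the main helicase of the group, had medians of 8.6 and 8.19 and a difference of -1.42, which was -0.54 without the 14 cells. Eif4a2, its paralog, had medians of 7.16 and 3.15 and differed by -2.64. Eif4a1 exceeded Eif4a2 in 36 of 46 GMP cells (78.3%, 63.6 to 89.1) and in CD11b+ GMP-P in 39 of 45 (86.7%, 73.2 to 94.9), and these intervals overlap. Eif4b, the cofactor that stimulates the helicase, had the largest difference of the group, -2.91, with medians of 5.94 and 1.16, whereas the related cofactor Eif4h differed by -1.52 and by +0.039 among cells with a similar number of genes.

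The cap-binding protein Eif4e had medians of 8.01 and 5.65, ranges from 0 to 9.5 and from 0 to 9.55, and a difference of -2.47. Its paralogs differed less. Eif4e2, which binds the cap without recruiting eIF4G, differed by -0.93, and Eif4e3 by +0.05, with 33 and 31 cells above 0. Eif4e exceeded Eif4e2 in 36 of 45 GMP cells that held either (80.0%, 65.4 to 90.4) and in 24 of 42 CD11b+ GMP-P cells (57.1%, 41 to 72.3). The 2 intervals overlap, which neither shows nor excludes a difference. Among the eIF4G scaffolds, Eif4g2, a form that lacks the site for eIF4E, was the most abundant, with medians of 7.0 and 5.65, and it exceeded Eif4g1 in 39 of 46 and 38 of 45 cells. Their differences were -1.47 for Eif4g2, -1.38 for Eif4g1 and -0.70 for Eif4g3.

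The repressors that hold eIF4E away from eIF4G were mostly represented by Eif4ebp1, a target of the growth-sensing kinase mTOR. It ran from 0 to 9.13 in GMP (median 6.31) and from 0 to 9.01 in CD11b+ GMP-P (median 2.94), and differed by -1.99. It exceeded Eif4ebp2 in 42 of 44 cells that held either in GMP and 28 of 33 in CD11b+ GMP-P. Eif4ebp3 was found in 17 and 7 cells and differed by -1.29, Eif4ebp2 in 16 and 6 cells (-0.70) and Eif4enif1, which shuttles eIF4E to the nucleus, in 27 and 22 cells (-0.81). Transcripts that read through from a neighbouring gene can add to Eif4ebp3, and libraries without strand do not separate them.

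Genes of subunit joining and termination had small differences beside most other groups. In subunit joining 1 of 2 genes was lower, and in termination 2 of 2. None of them was lower without the 14 cells or among cells of similar gene number. Eif5b, the GTPase that joins the subunits, differed by -0.56, with medians of 3.42 and 2.34, and by +0.22 without the 14 cells. Eif6, which keeps free large subunits from joining too early, had medians of 6.50 and 4.54 and a difference of -1.32. Etf1, which recognises the stop codon, and Gspt1, its GTPase partner, differed by -1.23 and -1.02, and were above 0 in 36 and 28 and in 35 and 30 cells. Taken as mean TPM, Etf1 differed by +0.18 on a log2 scale, and by -0.44 without the 1 CD11b+ GMP-P cell that held 844 TPM. Another 3 genes carry factor symbols but act elsewhere or are named for a shared domain. Eef1e1, a scaffold of the tRNA synthetase complex, differed by -3.26 (medians 6.62 and 0.00), Eif1ad, which has a domain like that of eIF1A, by -2.08, and Eif4a3, the helicase of the exon junction complex, by -1.54. All 3 were lower with all cells, 2 without the 14 cells and 1 among cells of similar gene number.

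The makeup of the factor transcripts also differed between the sets of cells. The eEF1 group made up 48.4% ± 6.00 of them in GMP, 42.8% ± 9.62 in CD11b+ GMP-P cells with Elane of at least 9 and 32.9% ± 16.8 in those with Elane under 9. The cap-binding group made up 7.89% ± 2.13, 9.74% ± 4.31 and 14.2% ± 12.9, and the start codon genes 5.87% ± 1.90, 7.32% ± 3.95 and 9.41% ± 6.93. Within the cap-binding group Eif4a1 alone made up 1.86% ± 0.98, 2.58% ± 1.74 and 6.20% ± 13.5, the last with an SD above its mean. The eIF3 group stayed between 16.6% and 18%, and Eif5a with its paralog between 9.52% and 11.5%. The SDs grew as the factor transcripts became fewer, and the ranges of cells overlapped in each group.

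**Figure D5:**
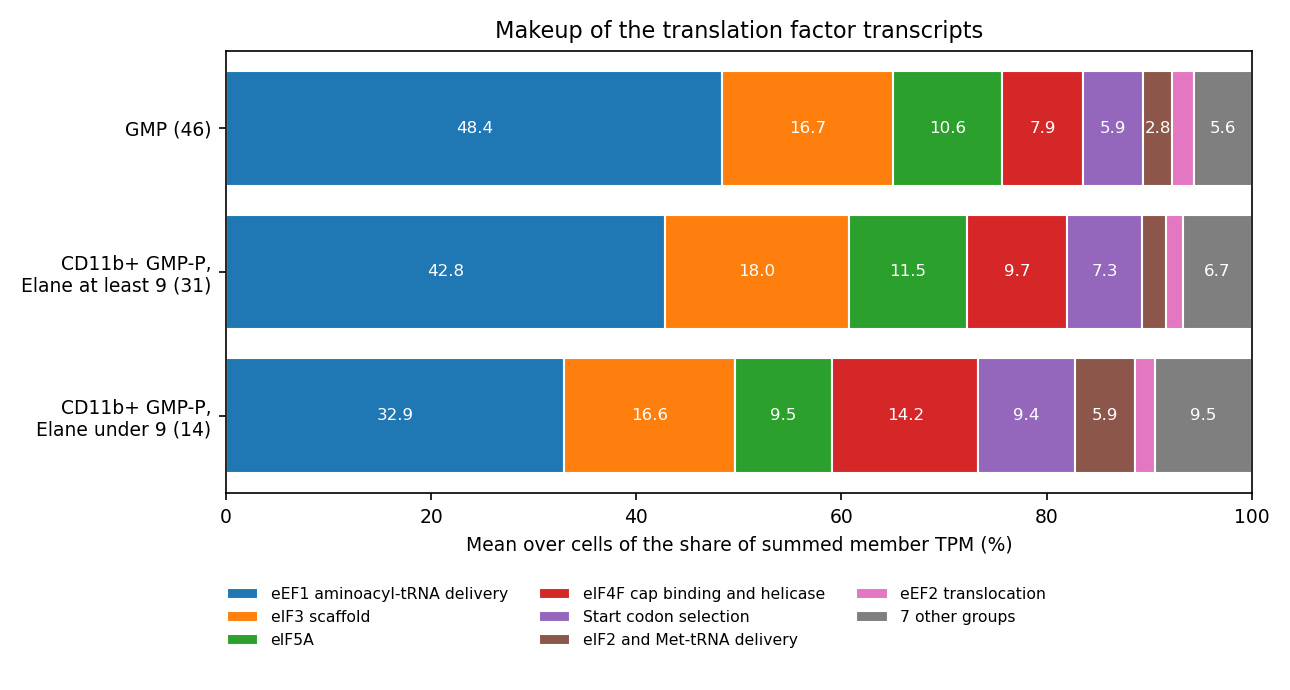
Share of summed TPM of the 69 genes held by each group (x axis, mean over cells, in percent) in GMP, CD11b+ GMP-P with Elane of at least 9 and CD11b+ GMP-P with Elane under 9, with the number of cells in parentheses and 7 small groups combined. The eEF1 share goes from 48.4% to 42.8% and 32.9%.

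Many mRNAs of elongation factors are known as TOP mRNAs, which begin with a C and a run of pyrimidines through which mTOR and LARP1 control their translation. Of 10 listed TOP factor genes (Eef1a1, Eef1b2, Eef1d, Eef1g, Eef2, Eif3e, Eif3f, Eif3h, Eif4b and Pabpc1), 9 were lower, with a median of -2.34, where 29.9% of all genes and 51.8% of commonly detected genes were lower. Without the 14 cells 7 were lower, with a median of -1.23, where 19.4% of all genes and 33.3% of commonly detected genes were lower. Start-site windows were available for 53 of the 69 genes in the RefSeq promoter table (build GRCm38.p6), 5 of them on the list. Each window below runs from 10 bases before to 20 bases from the annotated start, 5′ to 3′ on the gene's strand. Capitals mark the tract searched for, a C followed by at least 4 bases that are each C or T, beginning within 10 bases of the start and read on that strand only. The windows shown were picked, for their tracts or for contrasting differences, and lie at chr7:108934405-108934434 (Eif3f, plus strand), chr9:78481705-78481734 (Eef1a1, minus), chr15:102073763-102073792 (Eif4b, plus), chr10:81176621-81176650 (Eef2, plus), chrX:94212632-94212661 (Eif2s3x, minus) and chrY:1010585-1010614 (Eif2s3y, plus).
Eif3f: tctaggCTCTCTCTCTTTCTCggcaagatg
Eef1a1: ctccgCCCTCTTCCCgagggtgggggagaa
Eif4b: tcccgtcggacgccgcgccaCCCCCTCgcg
Eef2: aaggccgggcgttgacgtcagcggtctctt
Eif2s3x: gagcattttCCTTTTCTCTCCgagcaagat
Eif2s3y: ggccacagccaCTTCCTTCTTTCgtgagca

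Of the 5 listed genes with a window, 3 had a tract within 10 bases, and Eef1b2, not shown, had none. Eif3f had the longest tract, 15 bases, and the smallest difference of the listed genes, while Eif4b had a tract only from position 10 after the start and differed by -2.91. Eif2b5, not on the list and not shown, had a tract of 14 bases. The X and Y copies of the eIF2 gamma gene each carried a tract of 12 bases beginning within 1 base of the start. Eef2 had no tract that begins within 10 bases of the start, and the pyrimidines at the end of its window lie beyond that width. Tracts were not more frequent among the factors at this width, in 30.9% of their 68 windows and 30.7% of all 32851 windows, stood at 14.7% and 8.96% when required to begin within 2 bases of the start, and at 48.5% and 55.6% within 25 bases. The 17 measured genes with a tract within 10 bases had a median difference of -1.38 and the 33 without one -1.79, but the order was the opposite at the other widths, with -1.79 and -1.63 for 2 bases and -1.86 and -1.54 for 25 bases. Without the 14 cells with Elane under 9 the medians for 10 bases were -0.86 and -0.87. Annotated starts can lie some bases from those used in these cells.

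Other genes of translation control, which the naming rule does not take in, were counted the same way. Of 45 measured of 46 listed, 20 were lower and none was higher, with a median of -0.94. By the same rule 29.9% of all genes and 51.8% of commonly detected genes were lower, with medians of -0.50 and -1.05. Without the 14 cells 16 were lower, with a median of -0.60, where 19.4% and 33.3% were lower, with medians of -0.32 and -0.61. Pdcd4, an inhibitor of the eIF4A helicase, had the largest difference, -4.19, from a mean of 10.06 in GMP to 5.88. Paip2, which removes the poly(A)-binding protein from the mRNA, differed by -3.94, and Paip1, which acts in the opposite sense, by -2.13. Inhibitors and activators of the same step were thus both among the lower genes. Abce1, which splits ribosomes after termination, differed by -3.15, the mitochondrial elongation factor Tufm by -3.22, Larp1 by -2.99, and the reinitiation partners Denr and Mcts1 by -2.28 and -2.14. The listed gene with the highest difference was Cyfip1, a partner of the fragile X protein, at +0.55, chosen after its value was seen.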

How the data were processed

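Libraries came from single cells lysed on a Fluidigm C1 chip, with SMARTer cDNA and Nextera XT, per the labels' protocols. These libraries carry no molecular identifiers and no strand. The authors deposited 1 table of log2 values. After undoing the logarithm and removing 1, each column adds up to between 999999 and 1000080, which makes the values log2(TPM + 1). RSEM and the build mm9 are named in the submitters' processing notes. No source used here gives the aligner or annotation. In total 80.3% of values were 0, the closest pair of cells correlated at 0.67, so no column is a copy of another, and the populations share no cell number. No doublet caller was run.

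Means, SDs and differences over cells were computed with pandas 2.3.3 and numpy 2.4.6, and exact intervals with scipy 1.17.1. The calculation was tested on simulated data. The Elane value of 9, the members and all lists were chosen with earlier results of these data known. Named genes are, in each group, the 3 with the highest mean and the 3 with the largest difference, every gene called higher and the paralog pairs, and from the other translation genes the 8 with the largest differences, and other members are given more briefly. Alternatives were pseudocounts of 0.1 and 10 (main 1), the ratio of mean TPM in log2 units, median-of-ratios scaling on 948 genes or without the 50 highest genes, other filters, and sets of cells without low Elane, without the most genes, or of similar gene number (bounded by percentile 5 in GMP and percentile 95 in CD11b+ GMP-P). Coordinates of start-site windows are of GRCm38.p6 and were not used with the expression build. A further marker gene is not reported here.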

Additional observations from a re-analysis of the deposited data

How the results depend on the processing

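The count of 52 lower factors (29.9% of all genes were lower) was 29 when populations were compared by mean TPM (35.1% of 9916 genes). It was 25 among cells of similar gene number (16.7%) and 32 without the CD11b+ GMP-P cells with Elane under 9 (19.4%). Under the other settings it ranged from 36 with a pseudocount of 10 (12.6%) to 58 with 0.1 (45.6%). It was 37 with median-of-ratios scaling (21.1%) and 47 with scaling without the 50 highest genes (27.5%). The count of higher factors was 0 throughout except by mean TPM, where it was 1 (Eif2ak3, +2.46) and 12.6% of genes were higher. That call rests on 1 CD11b+ GMP-P cell with 88.03 TPM, without which the value was 0.76. In a comparison of mean TPM without the highest cell of each gene in each population, added after seeing the data, 34 factors were lower and 1 was higher (Eif2ak3, 1.66). The share over all genes was not computed for it. Scaling moved the median of the 5133 commonly detected genes from -1.05 to -0.68 (median of ratios) and -0.90 (without the 50 highest genes), and that of the factors among them from -1.94 to -1.33 and -1.62. Of 65 factors, 52 were below 0 and 15 lower by at least 1 in the main setting and all 9 alternatives of scale, pseudocount and cells. The share of all genes that do so was not computed. The median of the 5133 commonly detected genes was itself below 0 in each of these settings, from -1.63 to -0.44. The 15 were Bzw2, Eef1e1, Eef1g, Eef2, Eif1a, Eif2a, Eif2b4, Eif2s1, Eif3a, Eif3d, Eif3i, Eif3l, Eif3m, Eif4a2 and Eif4b. Of 63 factors below 0 in the main setting, 11 turned in at least 1 of the 9. Among those called lower, the sign turned for Eefsec (0.32) and Eif4h (0.039) among cells of similar gene number and for Eif3j2 (0.27) and Etf1 (0.18) by mean TPM, the last pair not without their highest CD11b+ GMP-P cell (-0.47 and -0.44). The other 7, all with differences under 1, were Eif1, Eif2ak1, Eif2ak2, Eif2ak4, Eif3f, Eif4g3 and Eif5b. The cause was not tested. Tracts were found in 17 genes within 10 bases of the start, 26 within 25 bases and 10 within 2 bases, as the width of the search sets. No paired analysis was possible because the labels name no animal that would link cells of the 2 populations. TPM keeps no depth, so a value of 0 can be a missed transcript, and genes near 0 in GMP could not be seen to fall.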
